A study of Pleurodeles waltl with 9 samples.

Results

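The transcripts described here are abundant ones of the dorsal iris of the Iberian ribbed newt, Pleurodeles waltl (P. waltl). Their level stayed within a 1.5-fold range before and over the days after lens removal. They were chosen by their deposited values in 8 libraries, with a mean of at least 1000 and a highest value at most 1.5 times the lowest. Of the 295141 transcripts in the table, 2917 had a mean of at least 1000, and 351 of these also stayed within the ratio limit. High abundance and steadiness over the 8 libraries are therefore properties of the choice, not results, and they are given as a description with no test. The ninth library, intact replicate 3, took no part in the choice.

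Dorsal iris tissue came from 13-month-old newts in 3 groups. These were intact irises and irises taken 1 or 4 days post-lentectomy (dpl). The labels name no strain or allele. Per the study's methods, animals were anaesthetised before surgical removal of the lens, and no other agent is named for these samples. Each group had 3 libraries of polyadenylated RNA, and each library pooled the tissue of 4 animals. The spread between libraries is therefore a spread between pools, and the spread between animals was not measured. The study asked what macrophages do during lens regeneration, and sequenced iris RNA to describe the early response to lens removal. The steady abundant transcripts kept within a set range over that time, which leaves room for smaller changes between groups.

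In newts, pigment epithelial cells of the dorsal iris lose their pigment, re-enter the cell cycle and transdifferentiate into a new lens, while immune cells enter the eye. Measuring such a response by RNA requires something that does not move, because sequencing and RT-qPCR give relative amounts. Transcripts of housekeeping genes, which serve translation, energy metabolism or the cytoskeleton in nearly every cell, are commonly used for this purpose, and the study used TAII70 in its RT-qPCR. The deposited IDs are not paired with gene names, and 0 of them matched the 59059 genes of the reference annotation. Which of the 351 encode housekeeping proteins, and which transcript is TAII70, was therefore not analysed here, nor could the tissue be checked against its marker genes. For the same reason transcripts are given by ID and no sequence is printed.

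The column totals of the 8 libraries lay between 19335182 and 22023433, while that of intact replicate 3 was 17541441. The columns are named as average TPM, but columns in TPM would share 1 fixed and far smaller sum, so values are given in deposited units with no further unit. The read depth behind them is unknown from the table. Intact replicate 3 stood apart from the other libraries, and the authors left it out for its alignment rate, so values in it are given separately throughout.

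The 351 transcripts spanned most of the range of high abundance. Their means over the 8 libraries ran from 1005 to 230132, with a median of 3194, and they occupied ranks from 1 to 2896 of the whole table. They included 5 of the 10 most abundant transcripts and 41 of the 100 most abundant. The share of transcripts that met the ratio limit was higher at higher levels. Of 1551 transcripts with a mean from 1000 to below 2000, 122 (7.87%) met it, and of 860 from 2000 to below 5000, 105 (12.2%) did. Between 5000 and 10000 it was 48 of 259 (18.5%), between 10000 and 20000 it was 33 of 139 (23.7%), and from 20000 upwards 43 of 108 (39.8%).

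**Figure D1:**
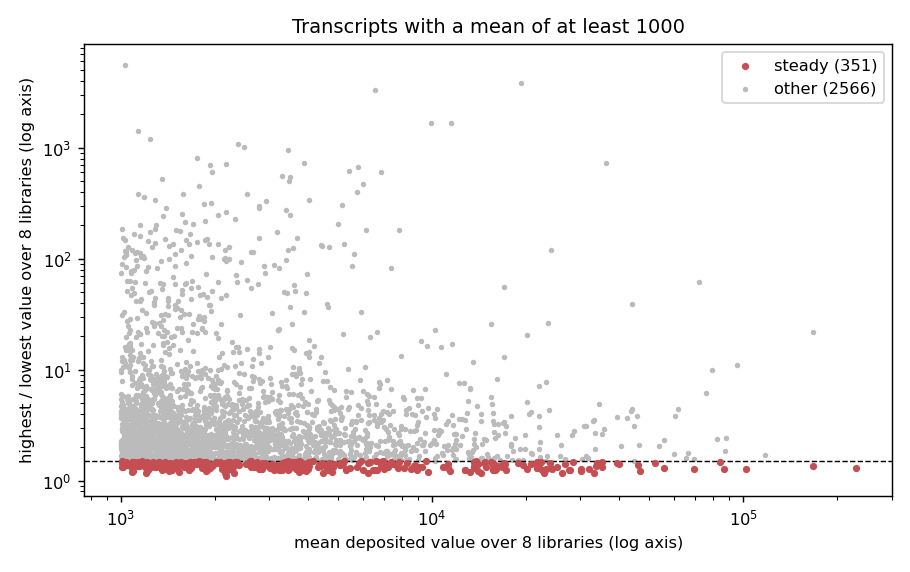
Each point is a transcript with a mean deposited value of at least 1000, with the mean over 8 libraries on the x axis and the ratio of the highest to the lowest value on the y axis, both on log axes. The 351 steady transcripts (red) lie at or under the dashed limit of 1.5, and the other 2566 (grey) lie above it, with a median ratio of 2.77.

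The most abundant of all transcripts in the table was itself steady. mRNA164213 had values of 225896 and 234486 in intact replicates 1 and 2, 253583, 249013 and 235199.6 at 1 dpl, and 226297, 221708 and 194872 at 4 dpl. All 3 libraries at 1 dpl lay above both intact libraries, the libraries at 4 dpl overlapped the intact ones, and the ratio of highest to lowest was 1.301. On average this transcript alone made up 1.13% of the total. MSTRG.46577.1, a transcript with an ID assigned by the StringTie assembler, was the next most abundant member. It had values of 140776 and 161331 in the intact libraries, 169379, 173109 and 171255 at 1 dpl, and 173847, 190316 and 163444 at 4 dpl. Every library after lentectomy exceeded both intact ones, yet the whole range stayed within a ratio of 1.35. mRNA164268 had values of 96573 and 108240.1 in the intact libraries, 110646, 115474 and 102604 at 1 dpl, and 100316, 93996 and 90415 at 4 dpl. All 3 libraries at 4 dpl were lower than those at 1 dpl, and both groups overlapped the intact libraries.

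The narrowest ranges belonged to transcripts of moderate level as well as high level. MSTRG.92844.1 had the lowest ratio of all, 1.11, with 2150 and 2234 in the intact libraries, 2204, 2302 and 2129 at 1 dpl, and 2206, 2170.5 and 2068 at 4 dpl. Its group means were 2192 ± 59.8 (SD, n = 2) in intact irises, 2212 ± 86.9 (SD, n = 3) at 1 dpl and 2148 ± 71.7 (SD, n = 3) at 4 dpl. MSTRG.126999.2 had a ratio of 1.16, with 2272 and 2292 in the intact libraries, 2237, 1972 and 2129 at 1 dpl, and 2251, 2147 and 2002 at 4 dpl. Intact replicates 1 and 2 stood above all 6 later libraries, although by little, whereas intact replicate 3 had 1568, below all 8. mRNA150070 combined a high level with a ratio of 1.17, having 31773 and 34021 in the intact libraries, 36024, 30907 and 33439 at 1 dpl, and 36265, 31282 and 32584 at 4 dpl. Its 3 groups overlapped, with means of 32897 ± 1590 (SD, n = 2), 33457 ± 2558 (SD, n = 3) and 33377 ± 2584 (SD, n = 3) in intact, 1 dpl and 4 dpl irises.

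Few of the 351 were as steady as these. A ratio of at most 1.2 was met by 14 transcripts and one of at most 1.3 by 88, whereas 152 had a ratio above 1.4, and the median ratio was 1.38. The limits thus divided a continuous distribution. Just inside the ratio limit, mRNA116207 (1399 to 2099) and MSTRG.58632.2 (933 to 1398) had ratios of 1.4999 and 1.499. Just outside it, mRNA126590 (2429 to 3644) had 1.5005 and mRNA144417 (1284 to 1928) had 1.502. Just inside the limit on the mean, MSTRG.45648.1 and mRNA5425 averaged 1005 and 1009. Just outside it, MSTRG.78769.1 and MSTRG.13173.1 averaged 994 and 992, with ratios of 1.373 and 1.402.

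Group means of the 351 transcripts differed by less than the ratio limit allows, since the limit bounds them. Relative to intact irises, log2 ratios of means ran from -0.49 to 0.43 at 1 dpl, with a median of 0.02, and from -0.49 to 0.50 at 4 dpl, with a median of 0.04. Between 4 dpl and 1 dpl they ran from -0.45 to 0.43, with a median of 0.01. Means within 0.1 of each other on this scale were found for 129 transcripts in 1 dpl against intact, 110 in 4 dpl against intact and 126 in 4 dpl against 1 dpl. The highest group mean fell to intact irises for 99 transcripts, to 1 dpl for 110 and to 4 dpl for 142. The lowest fell to intact irises for 140, to 1 dpl for 104 and to 4 dpl for 107. Splitting the squared log2 deviations of the 351 transcripts, 9.21% lay in a shift shared by all of them within a library. A further 55.6% lay in differences between group means of single transcripts, and 35.1% lay between libraries of a group. The ratio limit bounded all of these deviations, so the split describes the chosen values and nothing more.

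The test across all transcripts was also read on the 351, as a description. On log2(value + 1) tested with limma over 154825 transcripts, none of the 351 passed an adjusted p under 0.05 in 1 dpl against intact, where 1.34% of all tested transcripts did. In 4 dpl against intact 6 passed, 5 higher and 1 lower at 4 dpl, where 2.02% of all did. In 4 dpl against 1 dpl 3 passed, where 0.648% did, and these were mRNA85764 and mRNA126353, higher at 4 dpl by 0.39 and 0.36 on the log2 scale, and mRNA87611, lower with a log2 difference of -0.45. An unadjusted limma p under 0.05 was reached by 40 of the 351 in 1 dpl against intact. It was reached by 68 of them in 4 dpl against intact and by 57 in 4 dpl against 1 dpl. Over all 154825 tested transcripts, 11.3%, 11.4% and 9.92% reached it in these comparisons. The choice used these same contrasts, so nothing is read from the counts. An example from 4 dpl against intact is mRNA164277, the fifth most abundant of the 351, with 99643, 86388 and 100616 at 4 dpl against 67691 and 72721 in intact irises, and with 82789, 81692 and 81604 at 1 dpl between them. Its 4 dpl libraries did not overlap the intact ones, and its range filled most of the limit, with a ratio of 1.49. The transcripts of this paragraph and the next were chosen for mention after their values were seen.

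The furthest group means also show how much room the limit leaves. mRNA881 had the largest difference upwards at 4 dpl, with 11880.4, 12187 and 10598 at 4 dpl against 8148 and 8140.2 in intact irises, and 8549, 8364 and 8828 at 1 dpl. Its 4 dpl libraries were above all others, with a log2 ratio of means of 0.50. mRNA70373 had the largest difference downwards, with 2813, 2807 and 2865 at 4 dpl against 3871 and 4098 in intact irises, and 3783, 3404 and 3388 at 1 dpl. Its groups did not overlap, and 1 dpl lay between the others. MSTRG.142639.1 was lowest at 1 dpl alone, with 1716, 1682 and 1737 there against 2319 and 2481 in intact irises, and 2146, 2346 and 2217 at 4 dpl. MSTRG.53643.2 had the largest difference upwards at 1 dpl, with 2366, 2112 and 2313 there against 1605 and 1756 in intact irises, and 2239, 1982 and 1746 at 4 dpl. Its 1 dpl libraries lay above both intact ones and overlapped those at 4 dpl. Each of these 4 transcripts met the ratio limit, with ratios between 1.46 and 1.497.

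Steady and unsteady transcripts stood side by side in the numbering of the IDs. Between mRNA164205 and mRNA164283, the table holds 65 IDs, of which 20 had a mean of at least 1000 and 5 were steady. This run was singled out after its values were seen. The 5 were mRNA164213, mRNA164268, mRNA164275, mRNA164277 and mRNA164208, which are 5 of the 7 most abundant of the 351. Together they held between 2.49% and 2.95% of the total of each of the 8 libraries, whereas the whole run held between 4.12% and 8.28%. mRNA164275 had 76603 and 98230.4 in intact irises, 88571, 89409 and 79694 at 1 dpl, and 95783, 78572 and 88213 at 4 dpl, with all 3 groups overlapping. mRNA164208 had 61846 and 63266 in intact irises, 58235, 54018 and 48974 at 1 dpl, and 51825, 59105 and 49122 at 4 dpl, lower in all 6 later libraries than in both intact ones. The other 15 abundant transcripts of the run had ratios from 1.56 to 808. Their least variable, mRNA164215, missed the limit with 60940.5 and 71834 in intact irises, 82432, 82140 and 80830.5 at 1 dpl, and 52824, 65530.3 and 59283 at 4 dpl. mRNA164218, with a mean of 168197, was the transcript closest in level to MSTRG.46577.1. It had 235102 and 307538 in intact replicates 1 and 2, and 256767, 185539 and 265127 at 1 dpl. At 4 dpl it had 29945, 13916 and 51639, a ratio of 22.1 over the 8 libraries. In intact replicate 3 it had 32750, within the range at 4 dpl and far below the other intact libraries. Neighbouring ID numbers thus covered low and very high ratios.

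Of the 351 transcripts, 273 carried an ID beginning with mRNA and 78 (22.2%) carried a StringTie ID. StringTie IDs made up 25.1% of the other 2566 abundant transcripts and 45.8% of the whole table. Genes were told apart by StringTie IDs alone. The 78 belonged to 78 different StringTie genes, so that no such gene contributed 2 of them. In 39 the steady transcript was the sole StringTie ID of its gene. In the other 39, it held between 57.8% and all but a small part of the gene's summed value, with a median of 93.3%, and at least 90% in 27 of them. These genes had 64 further transcripts. Of these, 52 had a mean of at least 20 and were above 0 in all 8 libraries, and 3 of the 52 met the ratio limit, with a median ratio of 6.82. In 34 of the 39 genes the sum over all transcripts also stayed within the limit. Salmon divides reads among the transcripts of a gene by their unshared sequence, so values of minor transcripts are less certain. The mRNA IDs do not show which transcripts share a gene. Any transcripts of these genes with mRNA IDs are therefore missing from the counts, shares and sums per gene.

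Because the ratio limit bounded each of them, a nearly constant sum was built into the choice of the 351 transcripts. Their summed value was 3001315 and 3174428 in intact replicates 1 and 2, 3281474, 3054430 and 3215783.7 at 1 dpl, and 3347209.8, 3115279 and 3072129.7 at 4 dpl. As a share of the library total this was 15.5% and 16.3% in the intact libraries, 16.1%, 15.1% and 14.6% at 1 dpl, and 15.5%, 15.1% and 15.7% at 4 dpl. Group means were 15.9% ± 0.51 (SD, n = 2) in intact irises, 15.3% ± 0.75 (SD, n = 3) at 1 dpl and 15.5% ± 0.31 (SD, n = 3) at 4 dpl, and the groups overlapped. All 2917 transcripts with a mean of at least 1000, with no limit on the ratio, held between 62.8% and 66.1% of the total. A narrow range of shares was therefore not particular to the 351. The 3 most abundant of the 351 alone held between 2.30% and 2.66% of the total. A share is relative to all RNA sequenced from the tissue. Steady shares therefore do not show steady amounts per cell, and fewer cells of a type and less RNA per cell cannot be told apart in these bulk samples.

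**Figure D2:**
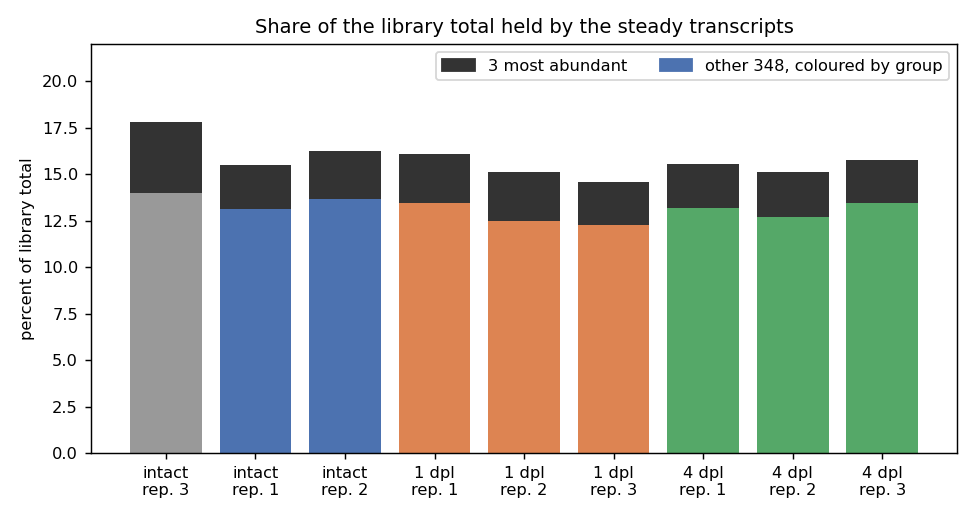
Bars show the percent of each library's summed deposited value held by the 351 transcripts, with the 3 most abundant in black and the other 348 coloured by group. Intact replicate 3 (grey) reached 17.8%, against 14.6% to 16.3% in the 8 libraries used for the choice.

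The question for an internal reference is which scale such transcripts set for each library. The scale factor of a library was taken as the geometric mean, over the 351 transcripts, of its value divided by the geometric mean of the 8 libraries. It was 0.978 and 0.997 in intact replicates 1 and 2, 1.01, 0.970 and 1.01 at 1 dpl, and 1.08, 1.00 and 0.964 at 4 dpl. The highest, in 4 dpl replicate 1, exceeded the lowest, in 4 dpl replicate 3, by 1.12 times, so the widest gap lay within a group. Group means of the log2 factors differed by 0.01 between 1 dpl and intact irises, by 0.04 between 4 dpl and intact irises, and by 0.02 between 4 dpl and 1 dpl. The library totals set a different scale, with corresponding log2 differences of 0.10, 0.08 and -0.02. The largest disagreement among single libraries was in 1 dpl replicate 3, whose total was 1.08 times the mean while the steady transcripts gave 1.01. Median-of-ratios scaling, over the 72193 transcripts above 0 in all 8 libraries, gave log2 differences of 0.00, -0.08 and -0.08. The mean differences of 4 dpl from intact irises thus had opposite signs. On the steady transcripts, the log2 factors at 4 dpl ran from -0.05 to 0.10 and overlapped those of intact irises, -0.03 and -0.0039. By median of ratios, the factors were 0.960, 0.949 and 0.994 at 4 dpl and 1.00 and 1.04 in intact irises.

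Factors near 1 are in part built in, because the ratio limit was applied to values as deposited. When each library was first rescaled to the mean total, 374 transcripts met the limits, and 297 of them were among the 351, which is 84.6% of the 351 and 79.4% of the 374. The log2 factors from these 374, relative to the deposited values, then differed by 0.10 between 1 dpl and intact irises, 0.10 between 4 dpl and intact irises, and 0.00 between 4 dpl and 1 dpl, close to those of the totals. After median-of-ratios scaling, 301 transcripts met the limits, 265 of which were among the 351. The reference set and the scale it returns therefore depend on the scale on which it was chosen.

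A library left out of the choice is not itself bounded by the limit, although the other libraries of its group still are. For each of the 8 libraries in turn, the limits were applied to the other 7, which gave between 377 and 423 transcripts, and the library left out was then read on them. Its median log2 ratio to the geometric mean of the other 7 was -0.07 and -0.0044 in intact replicates 1 and 2, 0.02, -0.06 and 0.04 at 1 dpl, and 0.16, -0.02 and -0.09 at 4 dpl. No group stood apart, and 4 dpl replicates 1 and 3 marked both ends. Other libraries of the same group still chose the transcripts, so a shift shared by a group was limited in advance. Nothing about such a shift is read from these medians. The log2 ratios of the totals were -0.09 and -0.07 in the intact libraries, 0.00, -0.02 and 0.13 at 1 dpl, and 0.09, 0.02 and -0.07 at 4 dpl. The share of the chosen transcripts that remained within the limit of 1.5 in the library left out lay between 83.0% in 1 dpl replicate 3 and 93.4% in 1 dpl replicate 2. At most 3 of the chosen transcripts differed by more than 2-fold from the geometric mean of the choosing libraries. Interquartile ranges of the log2 ratios over the chosen transcripts lay between 0.22 and 0.35. They give how far single transcripts differed in the scale they set for a library, not the precision of that scale.

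**Figure D3:**
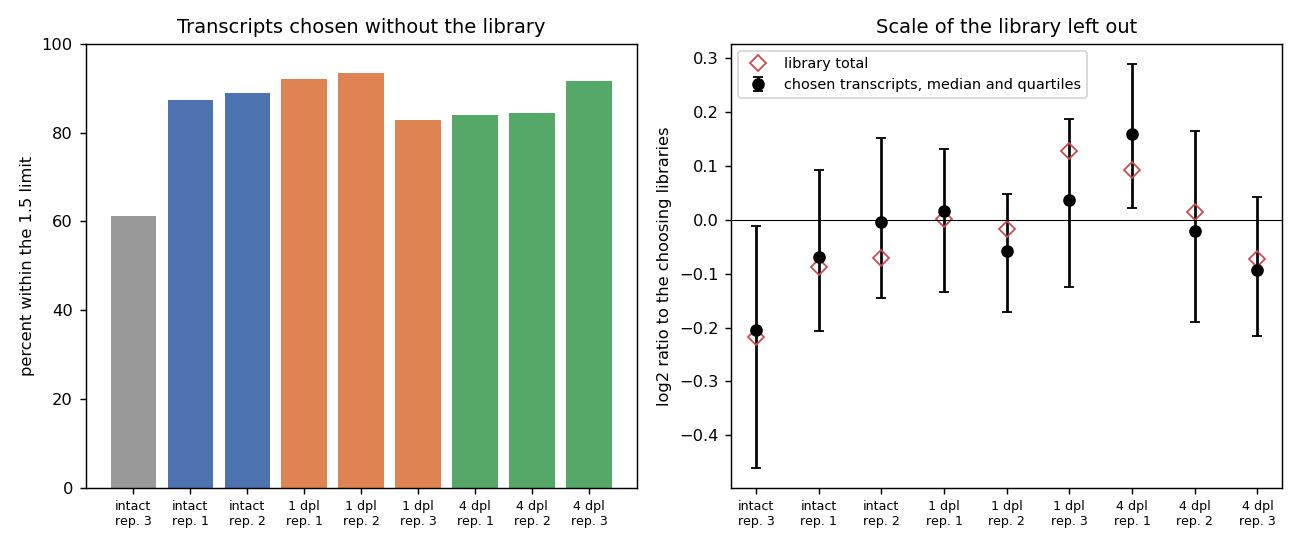
Left, percent of the transcripts chosen without a library whose value in it kept the highest within 1.5 times the lowest; right, the median log2 ratio of that library to the choosing ones (points, with bars for the quartiles over transcripts) and the log2 ratio of its total (diamonds). Intact replicate 3 (grey, chosen on all 8 others) had 61.3% within the limit, against 83.0% to 93.4%, and a median of -0.20.

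Scaling all transcripts on the 351 left most calls as they were. Their factors were near 1, in part by the choice itself, so this agreement was largely set in advance. After division by the factors, 2185 of 154825 transcripts (1.41%) passed an adjusted p under 0.05 in limma for 1 dpl against intact, 1576 of them higher and 609 lower at 1 dpl. As deposited the number was 2080, and 2051 transcripts passed in both, all in the same direction. For 4 dpl against intact, 3176 passed (2.05%), 2096 higher and 1080 lower, against 3131 as deposited, with 3051 in both. For 4 dpl against 1 dpl, 1066 passed (0.689%), 639 higher and 427 lower, against 1004 as deposited, with 977 in both. Of the 351 transcripts themselves, 2, 11 and 6 passed after scaling in these comparisons, where 1.41%, 2.05% and 0.689% of all tested did. The 2 were mRNA15024 and mRNA25653, lower at 1 dpl with log2 differences of -0.34 and -0.29, and both also passed at 4 dpl against intact. The 351 were chosen on these libraries and also set the factors, so nothing is read from their counts. Scaling on the totals gave 65.8%, 63.1% and 64.9% of calls higher, against 72.1%, 66.0% and 59.9% with the steady transcripts. Median-of-ratios scaling gave 72.3%, 71.7% and 69.2%.

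The numbers of calls changed more with a library left out than with the scaling. Leaving out a library also leaves fewer to estimate the spread, which rescaling does not, so these changes are unlike. For 1 dpl against intact, 458 transcripts passed without intact replicate 2, 1400 without 1 dpl replicate 1, 1209 without 1 dpl replicate 2 and 1406 without 1 dpl replicate 3, against the 2185 above. For 4 dpl against intact, 1980 passed without intact replicate 1, 647 without intact replicate 2, and 1557, 1579 and 1782 without 4 dpl replicates 1, 2 and 3, against 3176. For 4 dpl against 1 dpl, 97 and 267 passed without intact replicates 1 and 2, 516, 412 and 540 without 1 dpl replicates 1, 2 and 3, and 314, 342 and 313 without 4 dpl replicates 1, 2 and 3, against 1066. Without intact replicate 1 the balance also turned, with 45.2% of calls higher at 1 dpl and 44.6% higher at 4 dpl, while without intact replicate 2 it was 92.8% and 83.2%. With an intact library left out, the remaining one was assumed to vary like the other groups. For 1 dpl against intact, 1689, 1618 and 1579 passed without 4 dpl replicates 1, 2 and 3. For 4 dpl against intact, 2763, 2664 and 3421 passed without 1 dpl replicates 1, 2 and 3, the last of these a rise.

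Intact replicate 3 had the same condition as intact replicates 1 and 2, and the choice did not use it, so its values show how the set read in a library that stood apart. The summed value of the 351 transcripts was 3123085 there, against 3001315 to 3347209.8 in the 8 other libraries, and so within their range. Its share of the total was 17.8%, above all 8. Most single transcripts were nevertheless lower. Of the 351, 172 (49.0%) lay below all 8 other libraries, 20 (5.70%) above all 8 and 159 within their range. Read on transcripts chosen without them, the 8 other libraries had 4.56% to 24.9% below all 7 choosing libraries. Above all 7 they had 4.68% to 42.7%, the most in 4 dpl replicate 1. In intact replicate 3, the median log2 ratio to the geometric mean of the 8 was -0.20, with quartiles of -0.46 and -0.01. As folds, the median was 0.868 and the extremes were 0.0740 and 1.55. In 215 of the 351 (61.3%), the 9 libraries together still kept the highest within 1.5 times the lowest. The other libraries, each read on transcripts chosen without it, had 83.0% to 93.4%. On those same transcripts, chosen on 7 libraries, intact replicate 3 had between 56.9% and 62.8%.

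**Figure D4:**
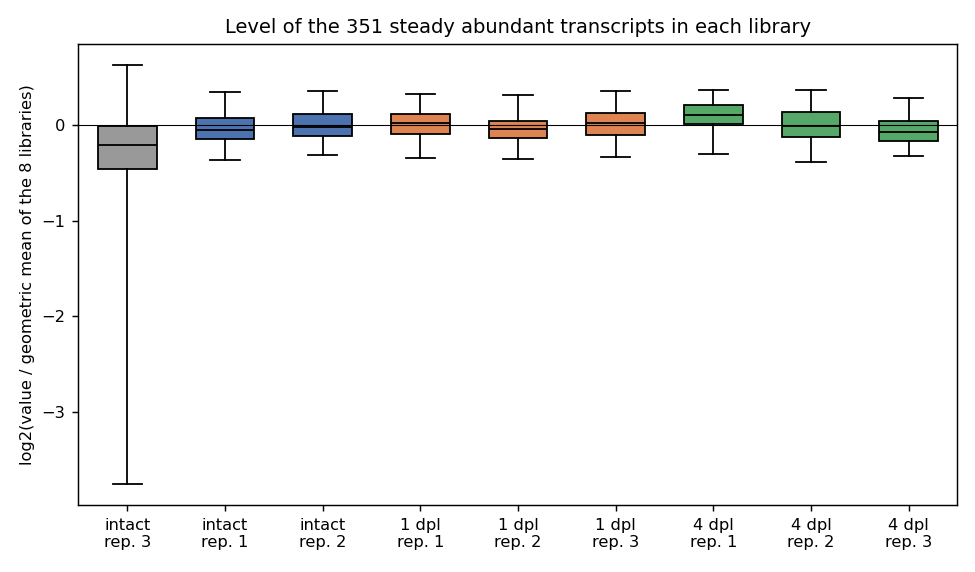
Boxes show the quartiles and median, and whiskers the lowest and highest, of the log2 ratio of each of the 351 transcripts to its geometric mean over the 8 libraries. The 8 libraries were bounded by the choice, whereas intact replicate 3 (grey) had a median of -0.20 and reached from -3.76 to 0.63.

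The departure of intact replicate 3 differed with the level of the transcript. Among the 122 transcripts with means below 2000, the median log2 ratio was -0.35 and 57 (46.7%) kept within the limit. The median was -0.23 for the 105 between 2000 and 5000, -0.14 for the 48 between 5000 and 10000, and -0.15 for the 33 between 10000 and 20000. Among the 43 from 20000 upwards it was -0.06, 20 were above the geometric mean and 36 (83.7%) kept within the limit. The 3 most abundant of the 351 held 3.80% of the total of intact replicate 3, against 2.30% to 2.66% in the other libraries. The other 348 summed to 2456093 there, below all 8 other libraries, which had 2516833 to 2846749, so the sum over the 351 was in range only with those 3. MSTRG.46577.1 had 250227 in intact replicate 3, against at most 190316 in the other libraries, a fold of 1.49 to the geometric mean of the 8. mRNA164213 had 277636 and mRNA164268 had 139129 there, folds of 1.21 and 1.36, and both also exceeded all 8 other libraries. Not all of the most abundant ones did so, since mRNA25653, with 50465 in intact replicate 3 against 62208 to 79424 elsewhere, lay below all 8. It too was picked after its values were seen.

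**Figure D5:**
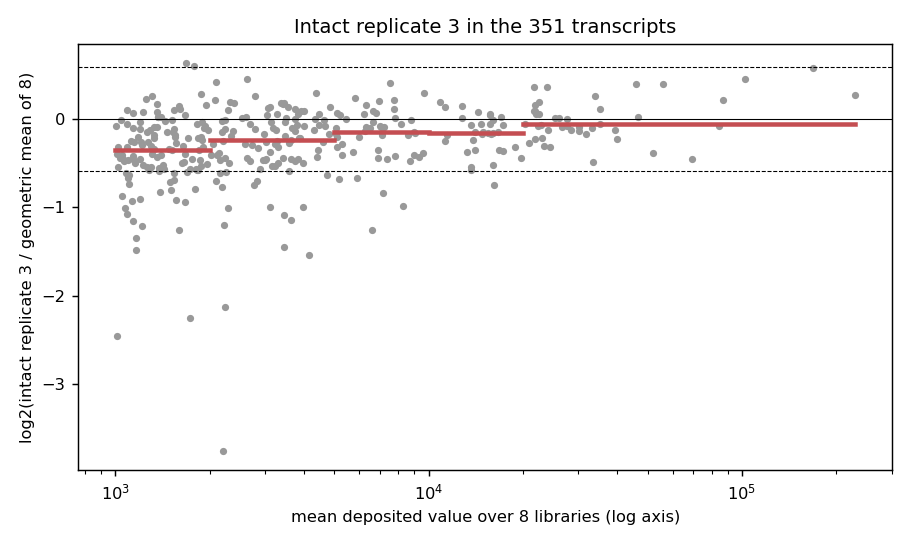
Each point is 1 of the 351 transcripts, with the mean deposited value over 8 libraries on a log x axis and the log2 ratio of intact replicate 3 to the geometric mean of those libraries on the y axis. Red lines give the median in each of 5 ranges of level, from -0.35 in the lowest to -0.06 in the highest, and dashed lines mark 1.5-fold.

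The transcripts that departed most were of modest level. mRNA158646 was at 161 in intact replicate 3, against 2389 and 2491 in the other intact libraries and 1675 to 2396 in the later ones, a fold of 0.0740. mRNA5425 was at 183, against 830.3 to 1244 in the 8 libraries, a fold of 0.183. In all, 18 transcripts were below 0.5 times the geometric mean and 0 were above 2 times. The highest were mRNA71614, with 2592 against 1503 to 1975 (1.55-fold), and MSTRG.141827.1, with 2667 against 2120 and 2233 in the other intact libraries and 1578 to 1752 in the later ones (1.51-fold). For MSTRG.141827.1 all 3 intact libraries were therefore above all later ones. Only 1 library shows these departures, and it has no replicate.

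Set against the other intact libraries alone, 304 of the 351 (86.6%) were within 1.5-fold of the mean of intact replicates 1 and 2 in intact replicate 3, compared with 1370 of the other 2566 abundant transcripts (53.4%). The median log2 ratios were -0.19 and -0.42. The 2566 exceeded the ratio limit over libraries that included intact replicates 1 and 2. A closer match of the 351 was therefore partly built in. Steady transcripts were also a larger share at higher levels, where more of them kept within the limit in intact replicate 3. The scale that the 351 transcripts gave this library, a factor of 0.826, was near that of its total, 0.860 times the mean of the 8. Summed values of the same 351 gave 0.989 instead, and median-of-ratios scaling gave 1.42, so the scale of this library depended on the measure. Median-of-ratios scaling was taken here over 69725 transcripts above 0 in all 9 libraries, most of them of low level. Their median log2 ratio in intact replicate 3 was 1.996 for 16010 transcripts with means below 10, 0.59 for 32123 between 10 and 100, and -0.55 for 18675 between 100 and 1000. It was -0.63 for the other 2566 abundant transcripts. After each library was rescaled to the mean total, the median of the 351 in intact replicate 3 was 0.01, with quartiles of -0.24 and 0.20. A common factor leaves the width between quartiles as it was. With it, 227 of the 351 kept within the limit over the 9 libraries, while in the 8 libraries alone 297 did.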

How the data were processed

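RNA of P. waltl dorsal iris was measured in 9 libraries, 3 from intact irises and 3 each at 1 and 4 dpl. Per the study's methods, the authors trimmed reads with Trim Galore, aligned them with STAR, built transcript models with StringTie, and obtained abundances from Salmon with bias correction. The deposited values are a signal per transcript and library that the authors name average TPM. Their totals are not those of TPM, so absolute settings such as the minimum of 1000 hold on this scale only. Versions and genome build are not given in the sources used here. Transcript length enters such values. The study states a minimum depth for its libraries, but the depth of each is not in the table, so no count test was run.

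Columns were assigned by name, and the labels gave the groups. The 8 libraries other than intact replicate 3 chose the 351 transcripts (mean of at least 1000, ratio at most 1.5) with pandas 2.3.3. Comparisons used limma 3.58.1 in R 4.3.3 on log2(value + 1), with all groups in 1 model, an intensity trend, transcripts with a mean of at least 0.5, and Benjamini-Hochberg adjustment over 154825 transcripts with a threshold of 0.05. Fold changes on this scale understate those of low transcripts. The procedure was also run on simulated data, and nothing here is read from that run. In it, the transcripts that set the scale factors were chosen before library factors were applied, unlike in these data. Plots used matplotlib 3.10.9. Alternatives concerned the limits, the scaling, the pseudocount, the minimum, the trend, the block, and each library left out.

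The transcripts and settings were chosen with earlier results of these data known. Named are the 3 highest means, the 3 lowest ratios, the 2 on each side of each limit, and the 2 highest and 2 lowest in intact replicate 3, and others are said to be chosen after their values were seen. Planned gene names and marker lists could not be used, as IDs carry no names.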

Additional observations from a re-analysis of the deposited data

Results flagged for a closer look

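The change from intact irises differed between 4 dpl and 1 dpl for 1066 transcripts, those that passed limma's test of 4 dpl against 1 dpl after scaling on the 351 steady transcripts. Both changes use the same intact libraries. Of the 1066, which were 0.689% of all tested transcripts, 6 were among the 351. As deposited the number was 1004 (0.648% of all tested), with 3 of the 351 among them. The choice of the 351 used these same contrasts, so nothing is read from either count of them. Without 1 of the 8 libraries the number after scaling lay between 97 and 540.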

How the results depend on the processing

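The limits set the size of the steady set, 351 transcripts, and what it held, 15.5% of the total on average. A minimum mean of 500 gave 530 transcripts, and one of 2000 gave 229. A ratio limit of 1.3 gave 88, one of 2 gave 1008, the ratio taken over group means gave 913, and all 9 libraries gave 214. The share of the total was then 16.1%, 14.7%, 5.55%, 29.0% and 27.5% for the first 5 of these, 14.5% after median-of-ratios scaling and 16.1% with sums per StringTie gene. In intact replicate 3, the percent within the limit in force, 61.3%, became 55.1% and 69.0% with minimum means of 500 and 2000. It became 55.7% and 71.4% with limits of 1.3 and 2. The set chosen on group means had 23.5%, but judged on single libraries rather than on group means. Only 351 of its 913 transcripts (38.4%) met that limit over the 8 libraries, so most failed it without intact replicate 3. The percent within the limit was 71.4% after rescaling to the mean total and 12.0% after median-of-ratios scaling. The median log2 ratio there, -0.20, became -0.26, -0.14, -0.15, -0.35, -0.29, -0.049 and -0.70 in the same order, below 0 in each. Without 1 library, the set numbered 377 to 423, the share was 15.8% to 17.8%, the percent within the limit 56.9% to 62.8%, and the median -0.24 to -0.20.

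On transcripts chosen without it, the scale of 1 dpl replicate 3 turned to -0.087, against 0.04, when libraries were rescaled to the mean total, which lowers this library by construction. That of 4 dpl replicate 1 became 0.058, against 0.16, and 0.076 from summed values, and that of 4 dpl replicate 3 became -0.0098, against -0.09.

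Calls after scaling on the 351 were 2185 between 1 dpl and intact irises, 3176 between 4 dpl and intact irises, and 1066 between 4 dpl and 1 dpl, and counts below keep this order. With a minimum mean of 20 they were 4433, 5881 and 2699, and without the intensity trend 116, 233 and 70, of which 95.7%, 80.7% and 87.1% were higher, against 72.1%, 66.0% and 59.9%. Without a minimum, 4 dpl against 1 dpl gave 225, and the percent higher was 55.8%, 55.1% and 76.9%. As deposited (2080, 3131 and 1004), the minimum of 20 gave 4353, 5837 and 2608, no trend gave 122, 259 and 80, and no minimum gave 191. A block for the replicate number left 1058, 1756 and 580 after scaling and 1006, 1702 and 509 as deposited. Same-numbered libraries of different groups had correlations of deviations between -0.081 and 0.0048, not every library correlated best with its own number, and no source describes a pairing. With 1 library left out, calls after scaling ranged from 458 to 1689, 647 to 3421 and 97 to 540, and as deposited from 389 to 1655, 561 to 3336 and 85 to 509. Scaling on totals, on summed values, by median of ratios or on the set chosen after rescaling kept each count within 1.5 times. A count of calls was taken as near when within 1.5 times of the reported one. For the share of the total, 16.1% against 15.5% already counted as moved. By such unlike limits, 106 of 199 recalculated values stayed near those reported, 92 moved and 1 turned. The cause was not tested.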

Other observations

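Steadiness was not limited to the abundant transcripts. Of 72193 transcripts above 0 in all 8 libraries, 2917 had a mean of at least 1000, and 12.0% of these met the ratio limit of 1.5. Among the remainder, under a mean of 1000, 487 met it, a much smaller share. The library left out for its alignment rate was not used to choose them either.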
